A study of Macaca mulatta with 12 samples.

Results

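The TRBV3 family is a group of variable (V) gene segments of the T cell receptor beta chain (TRB) of the rhesus macaque (Macaca mulatta). A clonotype, here a distinct CDR3 nucleotide sequence in a library, was counted as TRBV3 when the name of its first V hit started with TRBV3-. The rule selected 22240 of 218161 clonotypes in the 8 post-infusion libraries and 5 of 165 in the 4 baseline libraries. The genes found were TRBV3-1, TRBV3-2, TRBV3-3 and TRBV3-4. Positions of these segments on the chromosome were not used here.

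The libraries were made from polyadenylated RNA of frozen peripheral blood leukocytes. The 3 animals named Amazo, Nebula and Rocket were nondiabetic monkeys without a transplant, given intravenous apoptotic donor leukocytes (ADLs) on days -7 and 1 per the series text. ADLs are donor leukocytes, enriched for B cells, that were fixed with the cross-linker ECDI so that they die after infusion. Per the paper's methods, those of the first infusion were splenocytes. For the second infusion, B cells from donor blood and the remaining spleen cells were expanded in culture. In the study's schedule ADLs were combined with transient immunosuppression by the anti-CD40 antibody 2C10R4, rapamycin, an IL-6 receptor blocker and a soluble TNF receptor, so that the effect of ADLs alone cannot be told apart from that of the drugs. Libraries were available for day -5 (n = 3) and day -4 (n = 3), which fall 2 and 3 days after the first infusion. Amazo had a further library at day +3, 2 days after the second infusion, and Nebula had one at day 0, 7 days after the first. The 4 baseline libraries carry codes in place of names and share no animal name with the rest. The 4 codes differ and only 3 names occur, so that at least 1 baseline library is of another animal if each code stands for 1 animal. Beyond this, whether the baseline libraries come from the same animals before treatment cannot be told from the labels. The paper describes sampling 1 cohort before and after infusion, but no code is matched to a name here. The labels describe no separate cultures or extractions, and p-values of tests over libraries or names therefore measure the spread between these libraries. Fisher's exact tests on the counts of 2 libraries cover counting error only.

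A beta chain is built in the thymus by joining 1 V, 1 D and 1 J segment of the genome. The enzymes trim the segment ends and add random bases between them, and the resulting junction, the CDR3, is the part of the chain that lies over the presented peptide. The V segment encodes most of the remainder of the variable domain, including the CDR1 and CDR2 loops that mostly touch the MHC molecule. T cells of 1 clone carry the same junction, so a clonotype with many counts reports a large clone or a high amount of receptor RNA per cell, and these cannot be told apart here.

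The CDR3 starts inside the V segment, and clonotypes of the 4 TRBV3 genes mostly had the same first 16 bases when the aligner found no trimming. The V end below is the most frequent one among clonotypes with an untrimmed V segment and a single V hit, in which the capitals mark its last 4 bases. It accounted for 95.5% of 795 such clonotypes of TRBV3-1, 96.7% of 570 of TRBV3-2, 94.9% of 1574 of TRBV3-3 and 95.7% of 3470 of TRBV3-4. The bases behind this V end differed between TRBV3-4 and the other 3 genes, as given below with the trimming. The clones C1 to C7 are the 2 largest TRBV3 clonotypes of each post-infusion library and every other one that reached 0.1% of a library. C8 was added after its values were seen, as the TRBV3 clonotype of at least 0.02% at Nebula day 0 without a count at Nebula day -5. In the clones, lower case marks the bases that the aligner placed in the V and J parts and capitals mark the bases between them. In C1 the V part runs past the 16 bases of the shared V end, and whether the last base belongs to the segment was not tested.
V end shared by the 4 genes: tgtgccagcagcCAAG
C1 (TRBV3-3, TRBD1, TRBJ2-7): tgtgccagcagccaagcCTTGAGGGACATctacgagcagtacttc
C2 (TRBV3-1, TRBD1, TRBJ1-4): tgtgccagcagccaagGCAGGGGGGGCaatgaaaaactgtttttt
C3 (TRBV3-2, TRBD1, TRBJ2-1): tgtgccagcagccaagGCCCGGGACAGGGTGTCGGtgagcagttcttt
C4 (TRBV3-4, TRBD2, TRBJ2-1): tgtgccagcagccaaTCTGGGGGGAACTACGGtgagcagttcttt
C5 (TRBV3-3, TRBD1, TRBJ1-3): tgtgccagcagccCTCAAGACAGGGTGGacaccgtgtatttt
C6 (TRBV3-2, TRBD1, TRBJ2-5): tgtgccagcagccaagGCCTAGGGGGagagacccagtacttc
C7 (TRBV3-2, TRBD1, TRBJ2-7): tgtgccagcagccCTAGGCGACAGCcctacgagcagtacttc
C8 (TRBV3-4, TRBD1, TRBJ1-1): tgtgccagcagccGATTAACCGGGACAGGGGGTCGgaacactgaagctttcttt

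Total counts per library ranged from 42695 at Nebula day -4 to 556954 at Rocket day -5 after infusion, and from 63 to 74 at baseline. The libraries did not group by their animal names. By the Morisita-Horn index over all clonotypes (0 for no overlap, 1 for equal shares), with libraries joined above 0.5, they formed 3 repertoires. The first held Amazo day -5, Amazo day +3 and both Rocket libraries, the second held Amazo day -4 alone, and the third held the 3 Nebula libraries. TRBV3 clonotypes followed the same division. Within a repertoire the index over TRBV3 alone was between 0.377 and 0.535, and between repertoires it was 0.0326 or lower. The pair of Amazo libraries at days -5 and -4 therefore does not follow 1 set of clones, and the day -4 minus day -5 differences are given with and without Amazo. Amazo and Rocket share a repertoire at day -5, so the 3 names hold 2 distinct repertoires on that day. The SD and sign-flip p over the 3 names below treat the names as independent all the same. P-values with the 8 libraries as units treat repeated libraries of 1 repertoire as independent and are given as a description. Which label is affected cannot be told apart from these data.

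TRBV3 genes made up a larger part of the Nebula libraries than of the others. The family took 6.07% of counts at Amazo day -5, 6.49% at Amazo day -4 and 5.96% at Amazo day +3. It took 10.4%, 10.8% and 10.9% at Nebula day -5, day -4 and day 0, and 4.29% and 5.55% at Rocket day -5 and day -4. The Nebula values lay above those of the other 5 libraries without overlap, and Nebula day -4, the shallowest of them, had a 95% Wilson interval of 10.5% to 11.1%. Among 27 V families, TRBV3 ranked 3rd in each Nebula library, between 6th and 7th in the Amazo libraries, and 9th and 7th in the Rocket libraries. With each clonotype counted once, the Nebula libraries were still the highest, at 10.95%, 11.8% and 11.1%, but closer to the others. The share of clonotypes was 10.3%, 6.73% and 10.7% in Amazo (day -5, day -4, day +3) and 9.51% and 10.4% in Rocket (day -5, day -4).

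Within the family, TRBV3-4 was the most used gene and TRBV3-3 came next in 7 of 8 libraries. TRBV3-4 took 2.15%, 1.86% and 2.07% of counts in the Amazo libraries in the order above, 4.60%, 4.44% and 4.72% in the Nebula libraries, and 1.52% and 2.02% in the Rocket libraries. It thus held between 41.2% and 44.1% of the TRBV3 counts of Nebula and between 34.7% and 36.4% of those in the 4 libraries of the first repertoire. TRBV3-3 ranged from 1.34% to 2.78% of counts, TRBV3-2 from 0.651% to 1.90% and TRBV3-1 from 0.781% to 1.87%. The ranges of TRBV3-1 and TRBV3-2 overlapped, and so did those of TRBV3-3 and TRBV3-4. Among 61 V genes, TRBV3-4 ranked 5th or 6th in the Nebula libraries and between 16th and 19th in the others. At Amazo day -4 the order was different, with TRBV3-3 at 1.92%, TRBV3-2 at 1.90% and TRBV3-4 at 1.86%, and the single clone C3 accounted for 0.684 points of the TRBV3-2 value.

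**Figure D1:**
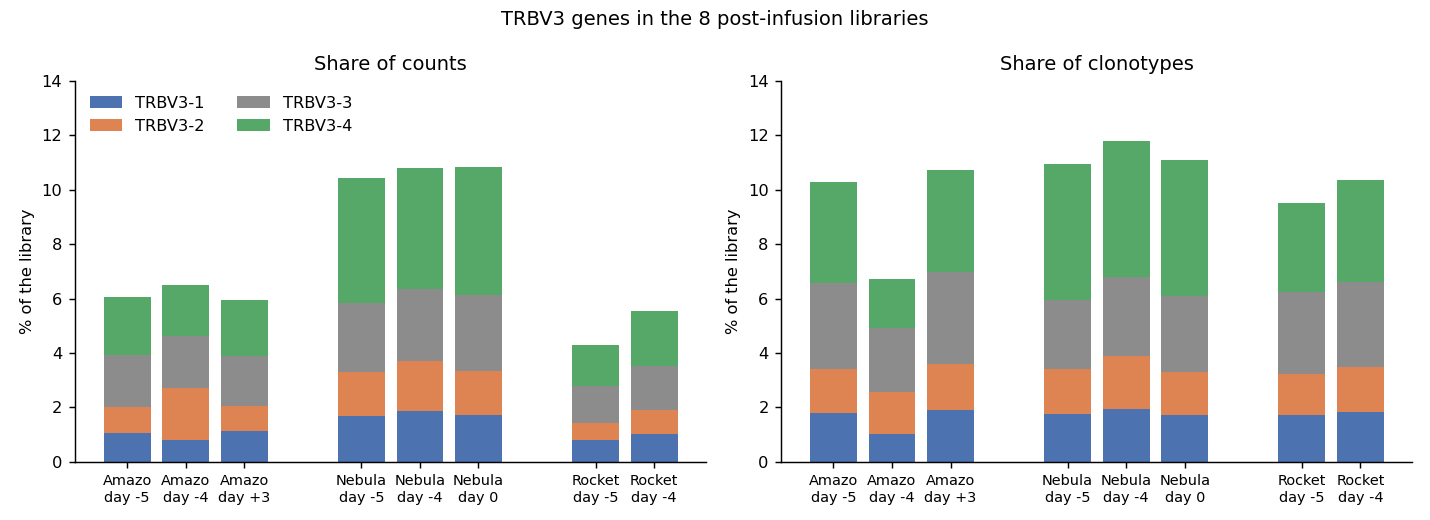
Share of counts (left) and of clonotypes (right) taken by each TRBV3 gene, in % of the library, for the 8 post-infusion libraries; the stacked bars start at 0 and each is 1 library. The Nebula libraries stand at 10.4% to 10.9% of counts, and Amazo day -4 has the lowest share of clonotypes, 6.73%.

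Across the 8 libraries, the V genes with the profile most like that of TRBV3-4 were TRBV6-2, TRBV4-1 and TRBV3-1, out of 46 genes with at least 0.1% of counts in each library. Their mean absolute differences from it in centred log2 share were 0.06, 0.16 and 0.18. For TRBV3-2 the nearest were TRBV12-3, TRBV2-1 and TRBV7-9, at 0.12, 0.14 and 0.14.

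TRBV3-1 and TRBV3-2 were often named together by the aligner, and this varied with the repertoire and between libraries of 1 repertoire. Of the counts assigned first to TRBV3-2, the V hits also named another gene for 10.7% at Amazo day -5, 6.96% at Amazo day +3, 0.773% at Rocket day -5 and 12.3% at Rocket day -4. The same share was 50.7%, 61.2% and 46.4% at Nebula day -5, day -4 and day 0, and 99.0% at Amazo day -4, where 8 of 402 TRBV3-2 clonotypes named that gene alone. The 3 repertoires did not overlap in this share. For counts assigned first to TRBV3-1 it ranged from 1.94% to 36.0%, the highest at Nebula day -4, and the repertoires overlapped. The median count of a TRBV3 clonotype was 2 at Nebula day -4 and 12 at Nebula day -5, which had the 1.94%. It was 3 at Rocket day -4 and 13 at Rocket day -5, the highest and the lowest of the first repertoire in the TRBV3-2 share. The part played by counts per clonotype was not tested. Hits of TRBV3-3 and TRBV3-4 were shared in at most 0.178% and 0.211% of their counts. Among the other V genes 6.11% to 14.1% of counts had a shared hit. A TRBV3 gene stood behind the first hit of another family in 1 clonotype each at Amazo day -5, Nebula day -4, Rocket day -4 and baseline library 1. Values of TRBV3-2 at Amazo day -4 and in the Nebula libraries can hence include TRBV3-1, whereas those of the whole family do not depend on how these hits were split.

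**Figure D2:**
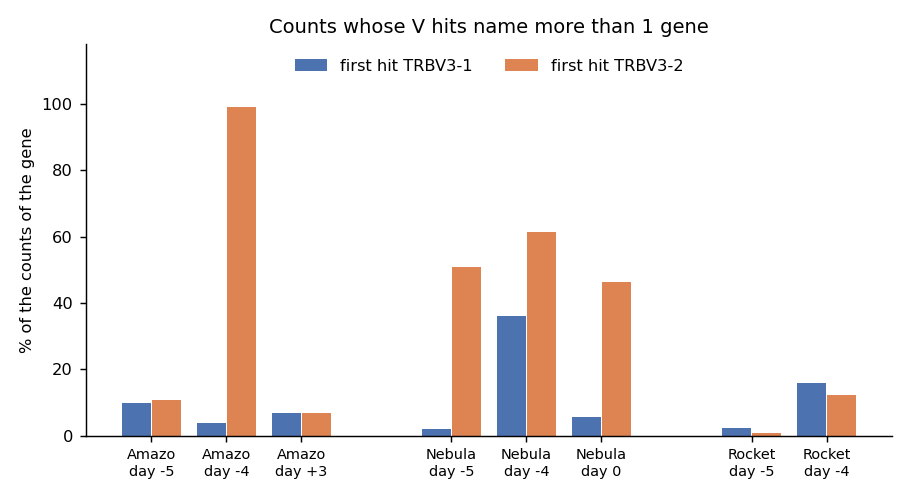
Counts with more than 1 gene among the V hits, in % of the counts first assigned to TRBV3-1 (blue) or TRBV3-2 (orange), for the 8 post-infusion libraries. TRBV3-2 reaches 99.0% at Amazo day -4 and lies between 46.4% and 61.2% in the Nebula libraries.

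Large clones were rare among TRBV3 clonotypes, apart from Amazo day -4. The largest TRBV3 clonotype took 0.0813% of the library at Amazo day -5, 0.684% at Amazo day -4 and 0.0590% at Amazo day +3. It took 0.0931%, 0.126% and 0.0841% in the Nebula libraries at day -5, day -4 and day 0, and 0.0734% and 0.0635% in the Rocket libraries. Only at Amazo day -4 (rank 8 among all clonotypes) did it stand among the 10 largest of its library, and elsewhere it ranked between 20 and 63. Of 281 clonotypes of any V gene with at least 0.1% of a post-infusion library, counted per library, 4 were TRBV3, and 3 of these were in Amazo day -4.

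Clonal concentration, the chance that 2 counts drawn from a set belong to the same clonotype, put this in 1 number. It was 0.0683%, 1.52% and 0.0648% for TRBV3 in the Amazo libraries at day -5, day -4 and day +3, against 0.987%, 0.703% and 1.34% for all other V genes. In Nebula it was 0.0584%, 0.0711% and 0.0555% against 0.0675%, 0.254% and 0.123%. In Rocket it was 0.137% and 0.0575% against 2.07% and 1.41%. TRBV3 was lower in 7 of 8 libraries and higher at Amazo day -4. The difference averaged -0.730 points ± 0.814 (SD over the 3 names) and the two-sided sign-flip permutation test, enumerated in full, gave an exact p = 0.25, the smallest that 3 names allow. It was -0.213 with the 3 repertoires as units (exact sign-flip p = 0.75) and -0.272 without Rocket. With the 8 libraries as units, which treats repeated libraries of 1 repertoire as independent, the exact sign-flip p was 0.0703.

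**Figure D3:**
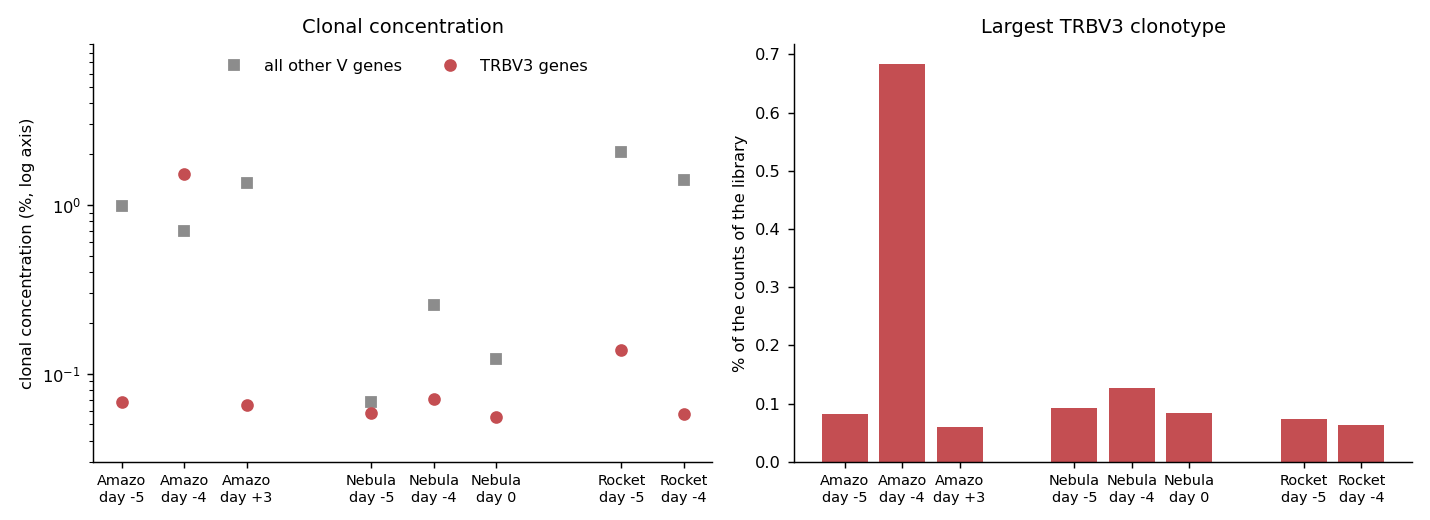
Left, clonal concentration in % on a log axis, for TRBV3 genes (circles) and all other V genes (squares) in each post-infusion library; right, the largest TRBV3 clonotype in % of the counts of its library. TRBV3 lies below the other V genes except at Amazo day -4, where its largest clonotype takes 0.684%.

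The named clones followed the repertoires. C1 had 283 counts at Amazo day -5, 120 at Amazo day +3, 409 at Rocket day -5 and 165 at Rocket day -4, and C2 had 123, 179, 246 and 106. Both were without a count at Amazo day -4 and in the Nebula libraries. For C1 at Amazo day -4, 0 of 392500 counts allows a share of up to 0.000764%. The 2 largest TRBV3 clones were thus the same pair in these 4 libraries, which carry the labels Amazo and Rocket.

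C3 was the largest TRBV3 clone of the series, with 2684 counts at Amazo day -4, 33 at Amazo day -5 and 0 in the other 6 post-infusion libraries. C4 had 1382 counts at Amazo day -4, 27 at Amazo day -5 and 12 at Amazo day +3. C7 had 487 counts at Amazo day -4 and 17 at Amazo day -5. In total, 21 TRBV3 clonotypes were found in both Amazo day -5 and Amazo day -4, and they held 21.4% of the TRBV3 counts of day -4 but 0.927% of those of day -5. C5 had 397, 54 and 217 counts at Nebula day -5, day -4 and day 0, and C6 had 207, 40 and 189, with none elsewhere. The 8 clones were productive, 42 to 54 bases long, and had no count at baseline, where 3 counts are 4.05% to 4.76% of a library.

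TRBV3 clonotypes recurred in part between libraries of 1 repertoire. Pairs of such libraries shared 111 to 227 TRBV3 clonotypes, which were 3.64% to 8.81% of those of either library and held 10.1% to 19.0% of its TRBV3 counts. Clonotypes of other V genes that recurred in these pairs were 4.53% to 11.1% of clonotypes and held 17.9% to 68.2% of counts.

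TRBV3 clonotypes were more often productive, that is in frame and without a stop codon, than those of other V genes. The productive share of TRBV3 clonotypes was 96.3%, 94.1% and 95.7% in the Amazo libraries (day -5, day -4, day +3), 94.6%, 97.4% and 95.6% in Nebula (day -5, day -4, day 0) and 93.8% and 95.6% in Rocket (day -5, day -4). For all other V genes it ranged from 88.3% to 94.2%. The ranges overlapped, but within each of the 8 libraries TRBV3 was higher, by 2.72 to 5.43 points. The mean difference was 3.88 points ± 0.476 (SD over 3 names, exact sign-flip p = 0.25, the smallest possible). Taking the 8 libraries as units, although they hold repeated repertoires, gave an exact sign-flip p of 0.00781. Weighted by counts in place of clonotypes, the difference was 1.93 points ± 1.07. Most TRBV3 clonotypes that were not productive were out of frame (2.34% to 5.37% of clonotypes), and an in-frame stop codon was found in 0.234% to 1.11%. Among the members, the productive share was 95.2% to 98.0% for TRBV3-1, 91.4% to 95.8% for TRBV3-2, 93.0% to 98.1% for TRBV3-3 and 88.4% to 97.8% for TRBV3-4, the lowest of these again at Amazo day -4. TRBV3-4 and TRBV3-2 did not differ beyond the spread (0.524 points ± 1.68, SD over 3 names, higher in 5 of 8 libraries, exact sign-flip p = 1).

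The CDR3 of TRBV3 clonotypes was longer than that of other V genes in every post-infusion library. Mean length of productive TRBV3 clonotypes was 44.4, 44.1 and 44.2 bases in Amazo (day -5, day -4, day +3), 44.2, 44.0 and 44.1 in Nebula (day -5, day -4, day 0) and 44.6 and 44.2 in Rocket (day -5, day -4). In the other V genes it was 43.0 to 43.6 bases, so that the 2 ranges did not overlap. The difference was 0.909 bases ± 0.0203 (SD over 3 names, exact sign-flip p = 0.25, the smallest possible). Taking the 8 libraries as units, although they hold repeated repertoires, gave an exact sign-flip p of 0.00781. With the other V genes reweighted to the J gene shares of TRBV3, the length difference was 0.785 bases.

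TRBV3-4 had the longest mean CDR3 of the 4 genes in each of the 8 libraries. Its mean was 44.5 to 45.5 bases, against 43.3 to 43.9 for TRBV3-1, 43.5 to 45.0 for TRBV3-2 and 43.5 to 44.3 for TRBV3-3. Within libraries, TRBV3-4 exceeded TRBV3-2 in 8 of 8, by 0.826 bases ± 0.291 on average (SD over 3 names, exact sign-flip p = 0.25, the smallest possible). Short junctions were scarce in TRBV3-4, in that a CDR3 of 12 codons was found in 1.53% to 3.24% of its productive clonotypes, against 3.88% to 7.14% in TRBV3-2 and 6.89% to 8.19% in other V genes. The most frequent length of TRBV3-4, 15 codons, made up 27.4% to 29.5%.

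**Figure D4:**
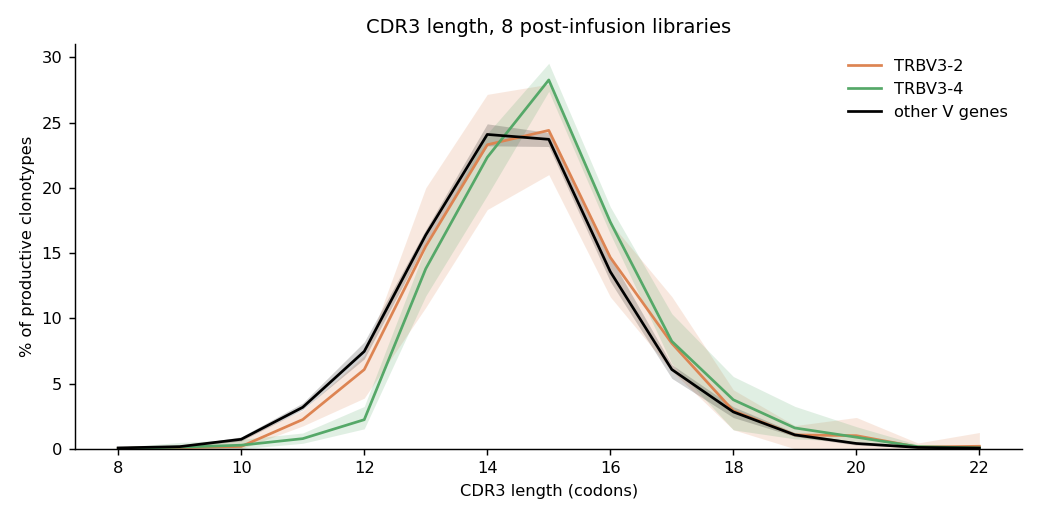
Distribution of CDR3 length in codons, in % of productive clonotypes, for TRBV3-2, TRBV3-4 and all other V genes; lines are means over the 8 post-infusion libraries and bands run from the lowest to the highest library. TRBV3-4 peaks at 15 codons and lies below both other lines at 12 codons.

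As called by the aligner against its reference, the V end was trimmed less in TRBV3-4 than in its relatives. Its V end was untrimmed in 37.3% to 48.4% of productive clonotypes, without overlap with TRBV3-2 at 29.3% to 35.6%, TRBV3-1 at 24.7% to 35.2% or TRBV3-3 at 26.1% to 29.1%. In other V genes it was untrimmed in 20.2% to 23.1%. On average 1.59 to 1.91 bases were removed from TRBV3-4, 1.90 to 2.34 from TRBV3-2 and 2.75 to 3.00 from other V genes.

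The bases that followed an untrimmed V end also differed. Behind the 16 bases printed above, the next base was A in 63.7% to 73.4% of TRBV3-4 clonotypes, compared with 4.63% to 18.5% in TRBV3-2, 9.22% to 20.5% in TRBV3-1 and 10.7% to 19.6% in TRBV3-3. In those 3 genes the next base was mostly G (59.4% to 74.5%). The pair AT followed in 32.1% to 41.4% of TRBV3-4 clonotypes and in 0.709% to 6.85% of the others. These 2 features were chosen after the values were seen. The germline segments were not used here, and whether the reference ends short of the TRBV3-4 segment was not tested. The untrimmed shares and the bases removed from TRBV3-4 given above therefore hold only relative to that reference.

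TRBV3 clonotypes carried J segments of the TRBJ2 cluster more often than other V genes. The TRBJ2 share of productive TRBV3 clonotypes was 71.8%, 71.6% and 71.3% in Amazo (day -5, day -4, day +3), 63.7%, 64.2% and 63.2% in Nebula (day -5, day -4, day 0) and 71.2% and 70.1% in Rocket (day -5, day -4). It was 64.1%, 62.2% and 63.5%, 57.4%, 57.1% and 57.2%, and 64.5% and 63.4% in the other V genes of the same libraries. Both sets were lower in Nebula, and TRBV3 was higher in 8 of 8 libraries, by 5.94 to 9.37 points. The mean difference was 7.14 points ± 0.996 (SD over 3 names, exact sign-flip p = 0.25, the smallest possible). Taking the 8 libraries as units, although they hold repeated repertoires, gave an exact sign-flip p of 0.00781. TRBV3-4 had 64.3% to 78.7% of TRBJ2 and TRBV3-2 had 59.6% to 71.7%, and TRBV3-4 was higher in 8 of 8 libraries, by 8.99 points ± 2.39 (SD over 3 names, exact sign-flip p = 0.25).

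Of the 13 J genes, TRBJ2-4, TRBJ2-5 and TRBJ2-1 exceeded their share in other V genes most, and TRBJ1-4, TRBJ1-5 and TRBJ1-2 fell short most. TRBJ2-4 was 11.4% of productive TRBV3 clonotypes against 8.71% in other V genes (means of 8 libraries), a difference of 2.73 points ± 0.283 (SD over 3 names). TRBJ2-5 differed by 1.96 ± 0.246 and TRBJ2-1 by 1.60 ± 0.687 points, while TRBJ1-4 differed by -2.21 ± 0.411, TRBJ1-5 by -1.43 ± 0.218 and TRBJ1-2 by -1.41 ± 0.25. Each of these 6 had its sign in 8 of 8 libraries. Adjusted over the 13 J genes by the Benjamini-Hochberg method, the exact sign-flip p was 0.271 for each with 3 names, where no J gene can pass, and 0.0127 with the 8 libraries as units, where 10 of 13 passed. The 8 libraries hold only 3 repertoires, so the second p counts repeated libraries as independent and the 10 passes are a description. Weighted by counts, TRBJ2-4 and TRBJ2-5 differed by 4.45 and 3.26 points, TRBJ1-5 and TRBJ1-2 by -0.911 and -0.529, and TRBJ2-1 turned to -0.544.

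The TRBJ2-4 difference was not spread evenly over the family. This J gene was 12.1% to 16.8% of productive TRBV3-3 and 11.1% to 16.8% of TRBV3-1 clonotypes, but 8.22% to 11.6% of TRBV3-4 and 6.67% to 13.3% of TRBV3-2 clonotypes. TRBJ2-5 ranged highest in TRBV3-4, at 9.92% to 14.9%, against 5.0% to 10.7% in TRBV3-2. TRBJ2-7 was the only gene of its cluster with a negative mean difference. Its family share was 10.7% against 11.8% in other V genes (means of 8 libraries), a difference of -1.08 points ± 0.169 (SD over 3 names) that was positive in 1 of 8 libraries. TRBJ2-3 differed by 0.319 points ± 0.264 (SD over 3 names) and was higher in 4 of 8 libraries.

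**Figure D5:**
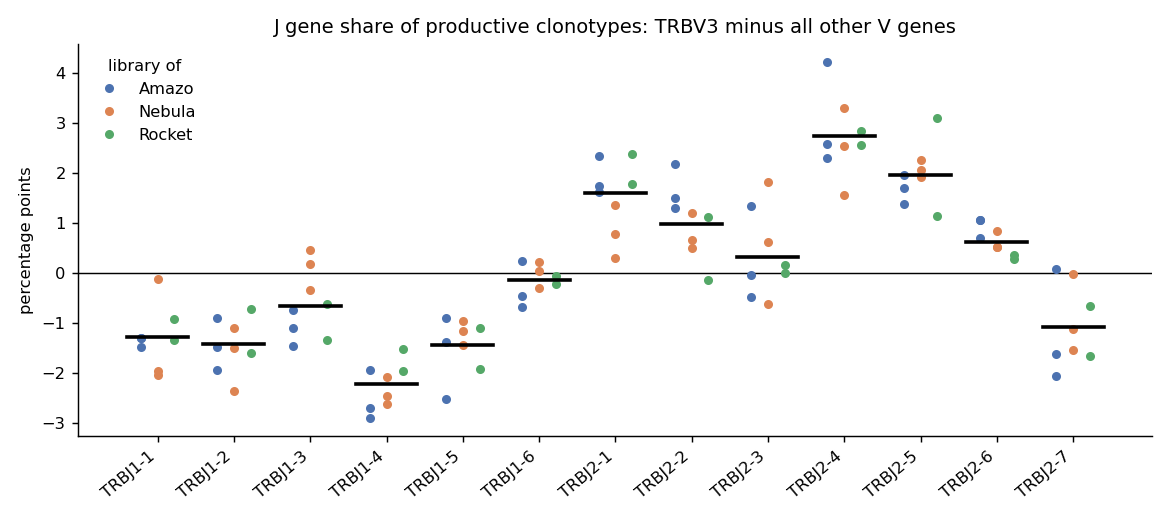
Difference in J gene share of productive clonotypes, TRBV3 minus all other V genes, in percentage points, for 13 J genes; points are post-infusion libraries coloured by animal name and black lines are means over the 3 names. TRBJ2-4 lies above 0 and TRBJ1-4 below 0 in each of the 8 libraries.

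The D segment differed in the same libraries. TRBD1 was assigned to 40.3% to 45.0% of productive TRBV3 clonotypes and to 50.8% to 52.5% of those of other V genes, and TRBD2 to 28.3% to 34.0% against 21.2% to 25.1%. Neither pair of ranges overlapped, and the mean differences were -9.25 points ± 1.03 for TRBD1 and 8.42 points ± 0.697 for TRBD2 (SD over 3 names, exact sign-flip p = 0.25 for each). Weighted by counts, the TRBD1 difference was -4.68 points ± 4.77 (SD over 3 names, exact sign-flip p = 0.5). This comparison was added after the data were seen. TRBD2 lies between the TRBJ1 and TRBJ2 clusters in mammals and joins in the main to TRBJ2, so that the TRBJ2 and TRBD2 shares are not independent of each other.

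From day -5 to day -4 the TRBV3 share of counts was higher in each of the 3 names, by 0.415 points for Amazo, 0.358 for Nebula and 1.26 for Rocket. The means were 6.93% ± 3.16 at day -5 and 7.61% ± 2.79 at day -4 (SD, n = 3), and the difference of 0.678 ± 0.505 points had p = 0.25 in the exact sign-flip permutation test, the smallest possible. It was 0.809 points without Amazo and 0.387 without Rocket. The Amazo libraries of the 2 days hold different repertoires, and the clone C3 went from 0.00948% to 0.684% of counts between them. That gain of C3 alone exceeded the 0.415 points of Amazo. When only clonotypes whose V hits name 1 gene were kept, the difference turned to -0.226 points. This filter left out more of the TRBV3 counts at day -4 than at day -5 in each name. The shares left out were 29.6% against 3.41% for Amazo, 16.9% against 8.14% for Nebula and 4.90% against 0.573% for Rocket. The turned value can therefore not be read as a change between the days. The share of clonotypes changed by -3.55 points for Amazo, 0.852 for Nebula and 0.851 for Rocket, with a mean of -0.617 ± 2.54 (SD, n = 3, exact sign-flip p = 1), and without Amazo by 0.851. Clonal concentration of TRBV3 differed by 1.45 points for Amazo, 0.0127 for Nebula and -0.0797 for Rocket, with a mean of 0.463 ± 0.860 (SD, n = 3, exact sign-flip p = 0.75), and without Amazo by -0.0335. The share of counts thus held its direction over the 3 names, with the Amazo rise smaller than the gain of C3, but not with clonotypes of 1 V hit only. The share of clonotypes and clonal concentration did not hold theirs over the names, and none of the 3 measures could pass a sign-flip test over 3 names.

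In a fit over all V genes, no TRBV3 gene passed the test between the 2 days. With edgeR's quasi-likelihood test and the animal name as block, 0 of 57 V genes (0%) passed an adjusted p of 0.05. At an unadjusted p of 0.05 the count was 0 with edgeR and 5 with DESeq2, which also called 0 after adjustment. The log2 fold changes, day -4 against day -5, were 0.46 ± 0.22 (SE) for TRBV3-2, -0.04 ± 0.23 for TRBV3-1, 0.03 ± 0.17 for TRBV3-3 and -0.04 ± 0.21 for TRBV3-4, with edgeR adjusted p of 0.627, 0.932, 0.932 and 0.932. Without Amazo, 4 of 56 V genes passed, among them TRBV3-2 with a log2 fold change of 0.25 and an edgeR adjusted p of 0.0432. With clonotypes of 1 V hit only, the log2 fold change of TRBV3-2 over the 3 names was -1.29, the shared hits of Amazo day -4 being left out.

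Individual TRBV3 clones were compared between pairs of libraries by Fisher's exact test on counts, adjusted over all tested clonotypes and called at 2-fold or more. Each such test compares 2 libraries, not 2 conditions. Of TRBV3 clonotypes of at least 0.1% in either library, 3 of 3 were called between Amazo day -5 and day -4, where 100% of 81 clonotypes of any V gene were called. These were C3, C4 and C7, at 0.684%, 0.352% and 0.124% at day -4 against 0.00948%, 0.00775% and 0.00488% at day -5. Since the 2 libraries hold different repertoires and each clone reached 0.1% only at day -4, the calls follow from the choice of clones and are given as a description. Between Nebula day -5 and day -4, 0 of 1 was called, where 8% of 25 of any V gene were called, and C5, the clone tested, went from 0.0931% to 0.126% with a Fisher's exact adjusted p of 0.0591 (unadjusted p = 0.0402, 1.36-fold). In Rocket day -5 to day -4, Nebula day -5 to day 0 and Amazo day -5 to day +3, no TRBV3 clonotype reached 0.1%, so none was tested.

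At a lower limit of 0.02%, added after the data were seen, more TRBV3 clonotypes entered. Between Amazo day -5 and day -4, 23 of 23 were called, with 100% called among 311 of any V gene. Between Nebula day -5 and day -4, 8 of 23 were called against 39% of 241 of any V gene, and between Rocket day -5 and day -4, 2 of 8 against 18.4% of 158. Between Nebula day -5 and day 0, 5 of 20 were called against 43.8% of 201, and between Amazo day -5 and day +3, 5 of 8 against 26.2% of 164. Of the called TRBV3 clonotypes, 23 of 23, 7 of 8, 2 of 2, 5 of 5 and 4 of 5 in these pairs reached the limit in only 1 of the 2 libraries, so that they entered through the library in which they were high and their direction is no result.

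The median count of a clonotype was 2 to 13 depending on the library and was the same in TRBV3 as in other V genes. When counts were divided by that median, 0 of 34 TRBV3 clonotypes were called between Nebula day -5 and day -4 (3.04% of 329 of any V gene) and 0 of 8 between Rocket day -5 and day -4 (5.03% of 159). In the same way 1 of 19 was called between Nebula day -5 and day 0 (3.83% of 183) and 1 of 8 between Amazo day -5 and day +3 (11.5% of 165).

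The clones still called were C8 in Nebula and C1 in Amazo. C8, picked for having no count at Nebula day -5, had 0 counts at day -4 as well and 130 at day 0 (0.0504%, 95% Wilson interval 0.0424% to 0.0598%). The share that 3 counts make was 0.000704% at day -5 and 0.00703% at day -4. C1 reached the limit in both libraries. It stood at 0.0813% at Amazo day -5, where it was the largest TRBV3 clone, and at 0.0395% at day +3. Its adjusted p was 0.0269 in Fisher's exact test on the divided counts. C1 was 1 of 8 tested, near the 11.5% called among any V gene, so the call is no result about TRBV3. C2 went the other way, from 0.0353% to 0.0590%, and was not called (1.67-fold on undivided counts). C1 stood at 0.0734% and 0.0635% in the 2 Rocket libraries, which carry the same repertoire.

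At baseline, TRBV3 was seen in 3 of 4 libraries with 8 counts in all. The share of counts was 4.11% in library 1 (95% Wilson interval 1.41% to 11.4%), 4.76% in library 2 (1.63% to 13.1%), 0% in library 3 (0 of 74 counts, Wilson upper limit 4.93%, or 4.05% by the limit of 3 counts) and 2.86% in library 4 (0.787% to 9.83%). The mean of 2.93% ± 2.11 (SD, n = 4) lay below day -5 (6.93%) and day -4 (7.61%), with p = 0.114 and p = 0.057 in exact two-sided permutation tests, of which the second is the smallest that 4 against 3 libraries allow. The differences of 4.00 and 4.68 points became 2.25 and 3.09 without the Nebula library, and with clonotypes of 1 V hit the first was 6.67. The Wilson intervals of the baseline libraries reached into the range of the post-infusion values. V assignment was less certain in the baseline libraries. Among clonotypes of other V genes, libraries 1, 2, 3 and 4 had shared V hits in 36.2%, 34.1%, 37.2% and 41.4%. No post-infusion library exceeded 13.1% in this measure, and the lowest stood at 8.08%. The effect on the TRBV3 share was not tested. Depth, V assignment and group cannot be told apart. The 5 baseline clonotypes were productive, 4 of them had V hits shared within the family, and none was found in a post-infusion library.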

How the data were processed

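Counts in 12 libraries of TRB transcripts were used. Per the labels, cDNA was made by template switching and the VDJ region was amplified by PCR. The authors used Trimmomatic for trimming and MiXCR, with the rhesus TRB segments then known, to build clones; versions are not given in the sources used here. The deposited counts are whole numbers per clone, not normalized. In each table the deposited fraction was checked to be its count over the summed counts. The methods describe barcode collapse and a clone threshold of 0.5%, yet the post-infusion tables hold clones far below it and no barcode column. PCR copies are not independent, so intervals, floors and Fisher tests cover counting error only.

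A row with a first V hit named TRBV3- was a member, and genes, J genes and clones were named by a fixed rule (the 3 J genes with the largest difference in each direction, the 2 largest clones per library and each clone called at 0.1%), except C8, which was chosen after its values were seen; clones called only at 0.02% were otherwise not named. Members and lists were chosen with earlier results of these data known. V usage was fitted with edgeR 4.0.16 (TMM, at least 10 counts in 3 libraries, animal name as block) or DESeq2 1.42.0, in R 4.3.3, and other tests used Python 3.11.15 with scipy 1.17.1. Scripts were tested on simulated data. The names pair the samples by their labels, and deviations from the day means over 57 V genes correlated at 0.855 for Nebula, 0.924 for Rocket and -0.0444 for Amazo.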

Additional observations from a re-analysis of the deposited data

How the results depend on the processing

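Of 280 alternative values over 35 results, 233 were labelled the same. For differences this meant the same direction and the same side of 0.05, and for numbers of calls an equal or similar number. Sign-flip tests over 3 or fewer names have a smallest p of 0.25, so that their side of 0.05 was fixed in advance. The 233 is therefore no measure of how firm the results are. The animal name as block changed no call: without it (no replicate block) the day differences of 0.678, -0.617 and 0.463 points in share of counts, share of clonotypes and clonal concentration had exact permutation p of 0.7, 0.9 and 0.7, 0 V genes were called by edgeR, and the log2 fold change of TRBV3-1 turned to 0.0217. With clonotypes of 1 V hit only, the difference in share of counts turned to -0.226, and the log2 fold changes of TRBV3-2 and TRBV3-4 to -1.29 and 0.0690. Total counts in place of TMM turned TRBV3-1 and TRBV3-4 to 0.0476 and 0.0480, and DESeq2 turned TRBV3-3 to -0.0139.

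Leaving out 1 name at a time gave -1.35 to 0.851 points for the share of clonotypes and -0.0335 to 0.734 for clonal concentration between days, the upper and the lower of these without Amazo, respectively. It gave -0.423 to 1.19 for the productive share of TRBV3-4 minus TRBV3-2, which was -0.675 over the 3 repertoires. It gave 0 to 4 called V genes (4 without Amazo, 1 without Nebula, 0 without Rocket), and log2 fold changes of -0.15 to 0.18 for TRBV3-1, -0.0126 to 0.10 for TRBV3-3 and -0.18 to 0.11 for TRBV3-4.

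With the 8 libraries as units, which treats repeated libraries of 1 repertoire as independent, TRBV3 differed from other V genes by 3.81 points in productive share, 0.908 bases in length and 7.20 points in TRBJ2. In this setting 10 J genes passed. TRBV3-4 then differed from TRBV3-2 by 0.838 bases, 8.70 points of TRBJ2 and -1.40 points of concentration, each with an exact sign-flip p of 0.00781. The last value rests on Amazo day -4 (-9.46 points): over the 3 names it was -1.27, without Amazo -0.274 and with 1 V hit only -0.665. Weighted by counts, TRBJ2-1 turned to -0.544 points.

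Called TRBV3 clones between Amazo day -5 and day -4 numbered 1 at a limit of 0.5%, 23 at 0.02% and 25 at 0.02% with divided counts, in a pair where 100% of the clonotypes of any V gene were called at each of these limits, and 0 TRBV3 clones at 1%, where none was tested. At 0.02% they were 8 for Nebula day -4 (39% of all called), 2 for Rocket (18.4%), 5 for Nebula day 0 (43.8%) and 5 for Amazo day +3 (26.2%), and with divided counts 1 for Nebula day 0 (3.83%) and 1 for Amazo day +3 (11.5%). The limits were moved after the data were seen only for 0.02%, and the cause of these changes was not tested. Depth limits the baseline libraries most, where 3 counts are 4.05% to 4.76% of a library.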
